A study of Mus musculus with 4 samples.

Results

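Heat shock chaperones were followed as 10 genes chosen by name: Hspa1a, Hspa1b, Hsph1, Hsp90aa1, Hspa8, Hspd1, Hspb1, Hspb7, Cryab and Dnaja1. All 10 were listed in the matrix of 22574 genes, and they were taken by name, with no threshold on a measured value. They were measured by single-nucleus RNA sequencing in 4 pools of neonatal mouse heart tissue, 1 for each pairing of genotype and surgery, called WT-Sham, WT-MI, KO-Sham and KO-MI. All mice carried loxP-flanked Nrf1 alleles (Nrf1 fl/fl). In KO mice these were combined with a Cre recombinase under the aMHC promoter, which is active in cardiomyocytes, and WT mice lacked that Cre. Pups had the left anterior descending artery of the heart tied off (MI, myocardial infarction) or the same chest operation with no such tie (Sham) at postnatal day 3. Per the study's methods the tissue was collected 1 day later. Each library came from 1 pool, made of the part of the heart beyond the tie from 4 to 6 pups that shared a genotype, and no group had a replicate. The protocol gives the background as C57BL/6, whereas the strain field reads C57BL/6 for WT-MI, C57BL/7 for KO-MI, C57BL/8 for WT-Sham and C57BL/9 for KO-Sham.

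Heat shock chaperones are proteins that bind other proteins while these fold, unfold or aggregate. When unfolded protein accumulates, the transcription factor HSF1 is released, binds heat shock elements in DNA and switches on the inducible members, while the constitutive members are made at all times. Cardiomyocytes hold large amounts of the small heat shock proteins, which sit on the contractile filaments and keep damaged protein from clumping, and the inducible members are known to respond to ischaemia in the heart.

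The libraries held between 4984625 (WT-Sham) and 9106522 (KO-Sham) unique molecular identifiers (UMIs, each a count of 1 captured RNA molecule) in 1406 to 3328 nuclei. The median nucleus held 2572 UMIs in KO-Sham and 3553.5 to 3959 in the other libraries. KO-Sham also had the highest median share of mitochondrial UMIs, 8.98% beside 5.29% to 6.58%. Only nuclei that the authors had assigned to cardiomyocyte populations (CM1, CM2, CM4 and CM5) were deposited, and all 8 of 8 cardiomyocyte markers were detected in every population of every library. Markers of other cell types were detected too: all 8 endothelial, 7 fibroblast, 8 myeloid and 5 red blood cell markers had UMIs in every library. A total of 9 cell barcodes occurred in a pair of libraries. Nfe2l1, the gene that encodes Nrf1, was at 62.2 CPM in WT-Sham, 47.4 in WT-MI, 50.5 in KO-Sham and 55.3 in KO-MI, where CPM are counts scaled to a sum of 1000000 UMIs. The log2 ratio of Nfe2l1 was -0.30 (95% interval -0.51 to -0.09) for KO-Sham over WT-Sham. It was 0.22 (0.02 to 0.43) for KO-MI over WT-MI, which goes against the label, so directions between genotypes are given for the libraries as labelled. These tags need not lie in the deleted part of the gene, so they are a weak check of the labels.

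For each gene, UMIs were added up within a library, or within 1 of its populations. Each group was 1 library, so differences are given without a test or p-value. Each interval is an exact 95% interval from counting error alone and does not cover the spread between hearts. A gene was counted as higher or lower when its CPM differed by at least 1.5-fold and it had 50 or more UMIs over both sums.

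Sequences before the start of the genes are shown because the inducible members are known by their heat shock elements, and because Hspa1a and Hspa1b are nearly the same gene. RefSeq promoters (GRCm38.p6), each from 250 bases before to 50 bases after a start, were read for 7 members; Hsp90aa1, Hspa8 and Cryab were not examined. A heat shock element of 2 units was searched as GAANNTTC or TTCNNGAA, patterns that read the same on both strands. It was found in a promoter of 6 of the 7 members, all but Hspb7, and in 17% of the 27025 genes with a promoter in the table. An element of 3 units, GAANNTTCNNGAA or its reverse complement TTCNNGAANNTTC, contains a pair of the shorter matches. It was found for Hspd1 and Hsph1, and in 0.662% of all genes. The core of the antioxidant response element, TGACNNNGC on either strand, was found in the promoter of Hsph1 alone among these 7, and in 14% of all genes. A match is a description of the letters and not a bound site. Below are the 250 bases before the start of Hspa1a (chr17:34972157-34972406, minus strand), Hspa1b (chr17:34959239-34959488, minus strand) and Hspb1 (chr5:135887669-135887918, plus strand), and an 18-base stretch that begins 144 bases before a start of Hspd1 (chr1:55088059-55088076, minus strand). Capitals mark the heat shock element matches.
Hspa1a: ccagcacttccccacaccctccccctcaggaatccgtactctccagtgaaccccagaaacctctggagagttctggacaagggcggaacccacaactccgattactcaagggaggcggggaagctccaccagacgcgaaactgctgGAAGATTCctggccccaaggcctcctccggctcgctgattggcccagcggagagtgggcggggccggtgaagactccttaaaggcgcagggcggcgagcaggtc
Hspa1b: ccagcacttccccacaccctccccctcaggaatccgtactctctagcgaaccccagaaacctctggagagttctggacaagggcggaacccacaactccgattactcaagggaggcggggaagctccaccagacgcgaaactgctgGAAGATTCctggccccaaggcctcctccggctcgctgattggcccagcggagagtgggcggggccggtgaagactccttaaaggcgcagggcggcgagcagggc
Hspb1: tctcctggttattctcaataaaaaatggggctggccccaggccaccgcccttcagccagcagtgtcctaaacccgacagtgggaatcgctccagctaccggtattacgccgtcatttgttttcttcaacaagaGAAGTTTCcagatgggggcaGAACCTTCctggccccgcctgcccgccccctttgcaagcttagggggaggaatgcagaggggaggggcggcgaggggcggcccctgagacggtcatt
Hspd1: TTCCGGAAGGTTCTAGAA
The matches of Hspa1a and Hspa1b began 104 bases before the start, and those of Hspb1 began 117 and 97 bases before it. The stretches of Hspa1a and Hspa1b were identical at 247 of 250 positions. Their longest reading frames were 99.48% identical, whereas the part of the transcript after the reading frame was 54.88% identical. Hspa1a (chr17:34969190-34972156) and Hspa1b (chr17:34956436-34959238) are single-exon genes on the minus strand with 9951 bases between them in the GENCODE M21 annotation of GRCm38. Per the study's methods only confidently mapped reads were counted. Reads from the shared part could thus have been left out of both genes, or given to either. Both genes are also given as a sum, which does not restore reads left out. Hspa1a overlaps the gene Gm20481 on the other strand by 2225 bases, Cryab overlaps Hspb2 by 1030 bases and Hspd1 overlaps Hspe1 by 112 bases. Whether the counting used strand is not stated.

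Hspa1a and Hspa1b, the inducible cytosolic members of the HSP70 family, were sparse in every library. Hspa1a was at 1.0 CPM in WT-Sham (5 UMIs), 25.5 in WT-MI (203 UMIs), 1.10 in KO-Sham (10 UMIs) and 6.79 in KO-MI (50 UMIs). Hspa1b was at 1.60 CPM in WT-Sham (8 UMIs), 15.8 in WT-MI (126 UMIs), 0.439 in KO-Sham (4 UMIs) and 5.16 in KO-MI (38 UMIs). For both genes the MI libraries were above the Sham libraries and WT-MI was the highest, with intervals that did not overlap those of any other library. These sums rested on few nuclei. Over all 8585 nuclei Hspa1a was seen in 103 and Hspa1b in 66. The 5 highest nuclei of WT-MI held 77.8% of its Hspa1a UMIs and 83.3% of its Hspa1b UMIs, while in KO-MI they held 34.0% and 36.8%. In the Sham libraries, with 4 to 10 UMIs per gene, the 5 highest nuclei held 50% to 100%.

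Hspa8 (chr9:40800984-40810087), the constitutive HSP70 of the cytosol, was at 329 CPM in WT-Sham, 363 in WT-MI, 451 in KO-Sham and 409 in KO-MI. KO-Sham was the highest and WT-Sham the lowest, and no neighbours in this order had a ratio interval that included no difference. Hsph1 (chr5:149614287-149636376), an HSP110 protein that exchanges the nucleotide of HSP70, was at 5.02, 9.93, 7.36 and 8.70 CPM in the same order of libraries, on 25 to 79 UMIs. Neighbours in the order of Hsph1 could not be told apart within counting error. Dnaja1 (chr4:40722150-40737149), an HSP40 protein that passes clients to HSP70, was at 23.5, 25.8, 28.8 and 22.0 CPM in that order, and again no neighbours were separated.

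Hsp90aa1 (chr12:110690605-110702728), the inducible isoform of cytosolic HSP90, was at 70.4 CPM in WT-Sham, 116 in WT-MI, 88.0 in KO-Sham and 118 in KO-MI. Both MI libraries lay above both Sham libraries, and the MI libraries overlapped each other. Hspd1 (chr1:55077835-55088243), the mitochondrial chaperonin HSP60, was at 137, 132, 178 and 162 CPM in the same order. The libraries labelled KO were above the libraries labelled WT for Hspd1, and WT-Sham and WT-MI overlapped.

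The small heat shock proteins hold unfolding proteins without using ATP. Cryab (chr9:50751325-50756636), alpha-B crystallin, was at 352 CPM in WT-Sham, 589 in WT-MI, 534 in KO-Sham and 697 in KO-MI. All neighbours in the order of Cryab were separated by more than counting error, with WT-Sham lowest and KO-MI highest. Hspb1 (chr5:135887919-135889563), HSP27, was at 145, 244, 230 and 278 CPM in the same order of libraries. WT-Sham was again the lowest and KO-MI the highest, and WT-MI and KO-Sham were not separated. Hspb7 (chr4:141420779-141425311), a small heat shock protein of heart and skeletal muscle, was at 128, 140, 134 and 152 CPM, and no neighbours in its order were separated.

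**Figure D1:**
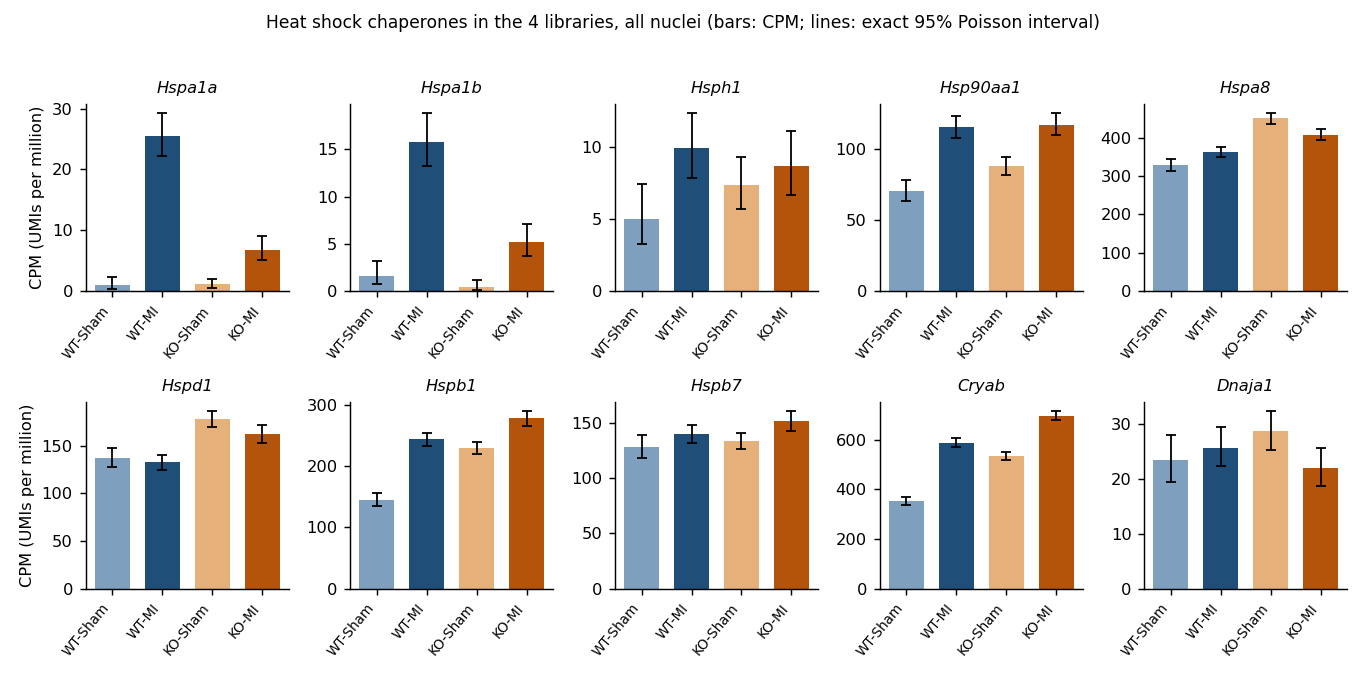
CPM of each of the 10 chaperone genes over all nuclei of each of the 4 libraries, 1 panel per gene and 1 bar per library on a linear axis from 0, with exact 95% Poisson intervals as lines. Hspa1a runs from 1.0 CPM in WT-Sham to 25.5 in WT-MI, whereas Hspb7 stays between 128 and 152 CPM.

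The UMIs of Cryab, Hspa8, Hspb1, Hspb7 and Hspd1 were spread over many nuclei. The 5 highest nuclei held 0.905% to 3.42% of the Cryab UMIs of a library, 1.12% to 2.80% of those of Hspa8 and 1.34% to 4.13% of those of Hspb1. They held 1.97% to 4.06% of the UMIs of Hspb7 and 1.24% to 3.50% of those of Hspd1. For Dnaja1, with fewer UMIs, the range was 3.82% to 10.3%. Hsp90aa1 stood at up to 4.56% in 3 libraries and at 10.7% in WT-MI, and Hsph1 at 10.4% to 24.0% in the others and at 31.6% in WT-MI. WT-MI was thus the library in which the 5 highest nuclei held the largest share of Hsp90aa1 and Hsph1.

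**Figure D2:**
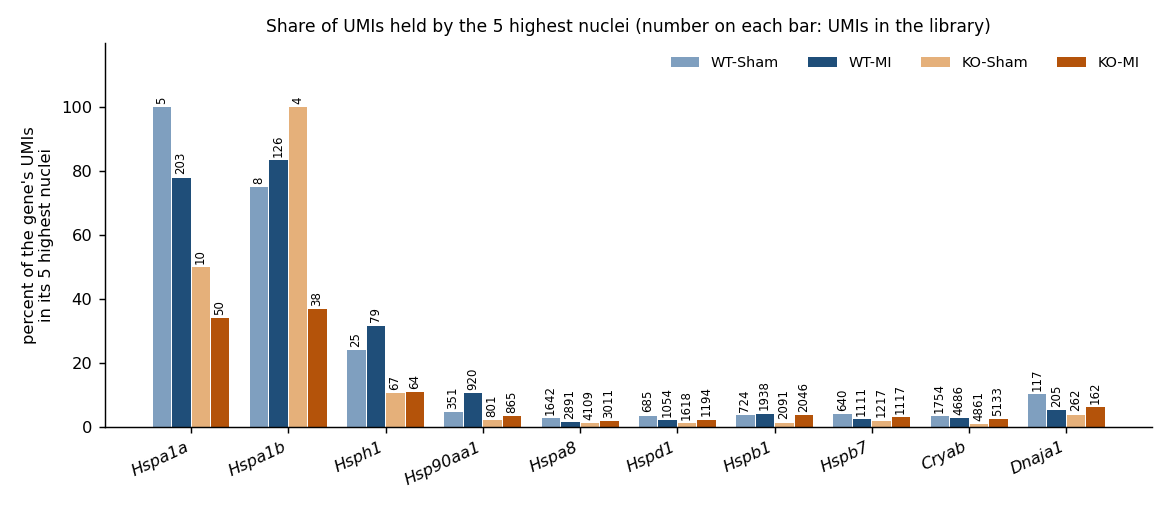
Share of a gene's UMIs held by its 5 highest nuclei, in percent, for the 10 chaperone genes in each of the 4 libraries, with the gene's UMIs in that library above each bar. Hspa1a and Hspa1b reach 77.8% and 83.3% in WT-MI, whereas Cryab stays at or below 3.42% in every library.

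A single nucleus of WT-MI held most of the Hspa1a and Hspa1b UMIs of the series. Its final label was CM4, whereas the label transferred from an earlier reference was CM1. It held 154 of the 268 UMIs of Hspa1a and 96 of the 176 of Hspa1b. This was 250 of the 257 UMIs of these genes in the CM4 nuclei of WT-MI. The same nucleus held 78 UMIs of Hsp90aa1, 18 of Hsph1, 15 of Hspb1 and 10 of Hspa8. It held 2 UMIs each of Hspd1, Cryab and Dnaja1, and 0 of Hspb7. Hspa1a, Hspa1b, Hsp90aa1 and Hsph1 thus made up most of its chaperone UMIs, and counts of 0 to 2 give no usable level for Hspd1, Cryab, Dnaja1 and Hspb7. The 10 members made up 9.72% of its 3878 UMIs, beside a median of 0.379% over the CM4 nuclei of that library. It ranked 18 of 192 CM4 nuclei of WT-MI by UMIs, with 1967 detected genes and 6.16% mitochondrial UMIs. It also held 55 UMIs of the cardiomyocyte markers, 12 of the endothelial markers, 8 of the red blood cell markers and 3 of the fibroblast markers. In the same order these markers were at 33205, 1576, 8411 and 2345 CPM over the CM4 nuclei of WT-MI. Scaled to its total, the nucleus was thus higher in endothelial markers and lower in the others. The part of these markers in its values was not tested. Among 48 other chaperone genes, 23 were detected in it with 73 UMIs. Folds were taken for the 78 genes with 5 or more UMIs in it, so genes rare elsewhere had to show large folds. Hspa4l, an HSP110 relative, was 47.1-fold higher in CPM there than in the other 191 CM4 nuclei of WT-MI, on 7 UMIs. Unc45b, a chaperone of myosin, was 20.2-fold higher on 6 UMIs and Hspe1, the partner of HSP60, 11.7-fold on 15. Hsp90ab1, also of that list, was 3.10-fold higher on 11. Genes outside the chaperone lists had large folds too, such as Col23a1 (179-fold on 5 UMIs) and Ppif (35.9-fold on 6). These genes were named after their values in this nucleus had been seen.

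The next highest sum of Hspa1a and Hspa1b was 11 UMIs, in 2 nuclei of KO-MI. The first, labelled CM4, held 7 and 4 UMIs of them, and the 10 members made up 1.38% of its 5306 UMIs. The second, labelled CM5, held 4 and 7, and the members made up 0.755% of its 3575 UMIs. Ratios that rest on the single WT-MI nucleus are given with and without it.

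In WT hearts, 3 of the 7 chaperones with 50 or more UMIs in each library, Hsp90aa1, Hspb1 and Cryab, were at least 1.5-fold higher in WT-MI than in WT-Sham and 0 were that much lower. Over the 8735 genes with that many UMIs in each library, 6.51% were that much higher. The median log2 ratio was 0.14 over these 7 members, 0.09 over 41 of 48 other chaperone and heat shock genes, of which 1 was higher, and -0.08 over all genes. Hspa1a and Hspa1b, on 5 and 8 UMIs in WT-Sham, passed the minimum of UMIs over both sums only through WT-MI, so they had to differ. Hsph1, on 25 UMIs in WT-Sham, also fell short of the minimum in that library. With these 3 genes 6 of the 10 were higher, with a median of 0.73. Of the 11362 genes that passed the same minimum, 10.2% were higher and 13.7% lower. By that minimum the other chaperones held 4 higher and 1 lower of 47, with a median of 0.09, and the median of all genes was -0.06. Without the single nucleus, Hspa1b was on 30 UMIs in WT-MI and 8 in WT-Sham and so under the minimum. Of the other 9 members 5 were higher, with a median of 0.59.

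The inducible genes had the largest ratios. Hspa1a had a log2 ratio of 4.67 (3.42 to 6.31) in WT-MI over WT-Sham, and 2.62 (1.30 to 4.30) without the single nucleus. Hspa1b went from 3.30 (2.28 to 4.55) to 1.23 (0.07 to 2.57) without it. As a sum they had a log2 ratio of 3.99 (3.19 to 4.91), and 1.93 (1.07 to 2.90) without it. Removing 1 of 2003 nuclei thus lowered the sum by over 2 units on the log2 scale and left an interval above 0.

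Hsp90aa1 had a log2 ratio of 0.72 (0.54 to 0.90) for the WT pair, which went to 0.59 (0.41 to 0.77) without the nucleus. Hsph1 had 0.99 (0.32 to 1.70), which went to 0.61 (-0.08 to 1.35), an interval that included no difference. Cryab, with 0.74 (0.66 to 0.82), and Hspb1, with 0.75 (0.62 to 0.87), were little touched by it and had 0.74 and 0.74 without it. Cryab was seen in 1717 of the 2003 nuclei of WT-MI and Hspb1 in 1144. Hspa8 had a log2 ratio of 0.14 (0.05 to 0.23) and stayed under the 1.5-fold mark. The intervals of Hspb7 (0.12), Dnaja1 (0.13) and Hspd1 (-0.05) included no difference.

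In hearts labelled KO, 1 chaperone, Hspa1a, was at least 1.5-fold higher in KO-MI than in KO-Sham and 0 were that much lower, among the 9 with 50 or more UMIs. Over the 11857 genes with that many UMIs, 11.7% were that much higher and 10.8% that much lower. Hspa1a passed the minimum only through KO-MI, and 0 of the 8 members with 50 or more UMIs in each library were past the fold. The median log2 ratio was 0.24 over these 9 members, 0.09 over 47 other chaperones and 0.04 over all genes. Of the other chaperones, 6 were higher and 1 was lower. Hspa1a had a log2 ratio of 2.63 (1.63 to 3.77) on 50 and 10 UMIs. Hspa1b, on 38 and 4 UMIs and so under the minimum, had 3.56 (2.08 to 5.50). No single nucleus held these values, since 38 nuclei of KO-MI had a UMI of Hspa1a and 29 had a UMI of Hspa1b.

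The other members had smaller ratios in this pair. Hsp90aa1 had a log2 ratio of 0.42 (0.28 to 0.56) for KO-MI over KO-Sham, Cryab 0.39 (0.33 to 0.44), Hspb1 0.28 (0.19 to 0.36) and Hspb7 0.18 (0.07 to 0.30). These 4 intervals lay above 0 and below the 1.5-fold mark. The intervals of Hspa8 (-0.14, -0.21 to -0.07), Hspd1 (-0.13, -0.24 to -0.02) and Dnaja1 (-0.39, -0.68 to -0.10) lay below 0. Hsph1, with 0.24 (-0.28 to 0.76), was not separated. The pairs of either genotype share no library, and the difference between their ratios was not tested. The markers of myeloid cells also differed with surgery, at 164 CPM in WT-MI beside 78.2 in WT-Sham and at 108 in KO-MI beside 50.8 in KO-Sham. A list of 9 early stress genes, such as Fos and Egr1, was at 134 and 147 CPM in WT-MI and KO-MI beside 103 and 115 in WT-Sham and KO-Sham. Their part in the chaperone values was not tested.

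**Figure D3:**
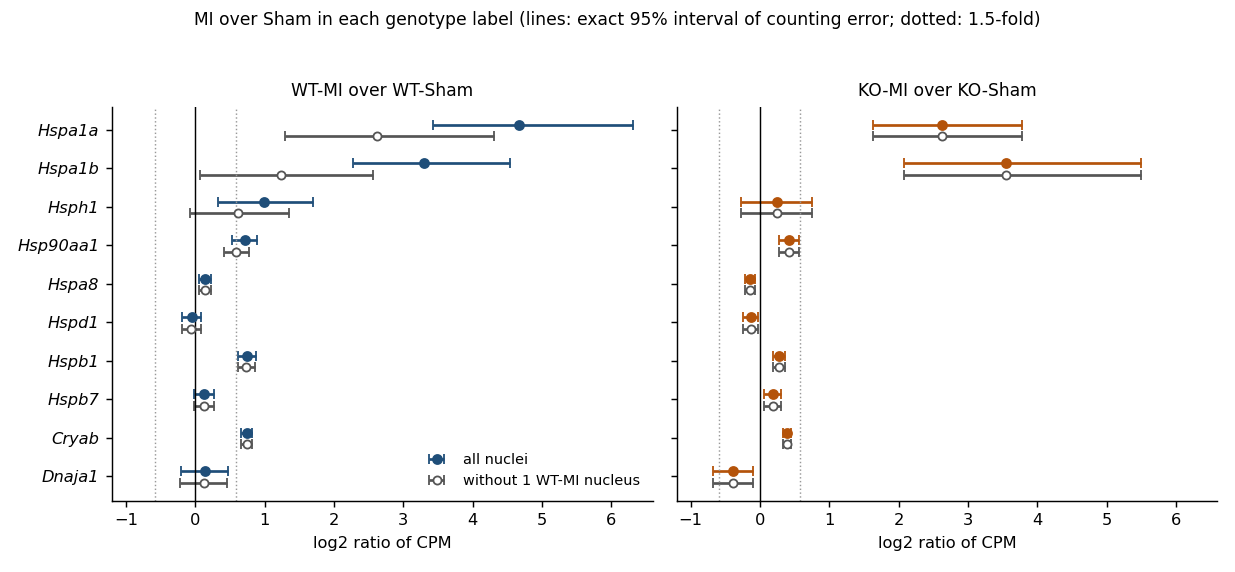
Log2 ratio of CPM of MI over Sham for each of the 10 chaperone genes, in the WT and in the KO pair of libraries, with exact 95% counting intervals as lines, open points that leave out the single WT-MI nucleus (the same in the KO pair) and dotted lines at 1.5-fold. Hspa1a is at 4.67 in the WT pair, 2.62 without that nucleus and 2.63 in the KO pair.

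Between genotypes after MI, 2 of the 10 chaperones, Hspa1a and Hspa1b, were at least 1.5-fold lower in the library labelled KO-MI than in that labelled WT-MI, and 0 were that much higher. Over the 11700 genes with 50 or more UMIs, 1.73% were that much lower and 1.89% that much higher. The median log2 ratio was 0.07 over the members, 0.16 over 47 other chaperones and 0.03 over all genes. Hspa1a had a log2 ratio of -1.91 (-2.39 to -1.46) and Hspa1b had -1.62 (-2.18 to -1.08). Without the single WT-MI nucleus they had 0.14 (-0.46 to 0.74) and 0.45 (-0.28 to 1.19), so the lower level in KO-MI was held by that nucleus and no member was past 1.5-fold without it. Both of these intervals included no difference.

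The other members differed little between the MI libraries. Hspd1 had a log2 ratio of 0.29 (0.17 to 0.41) for KO-MI over WT-MI, Cryab 0.24 (0.19 to 0.30), Hspb1 0.19 (0.10 to 0.28) and Hspa8 0.17 (0.10 to 0.25), with KO-MI the higher. The intervals of Hsp90aa1 (0.02, -0.11 to 0.16), Hsph1 (-0.19), Hspb7 (0.12) and Dnaja1 (-0.23) included no difference.

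After Sham surgery, 2 of the 8 chaperones with 50 or more UMIs, Hspb1 and Cryab, were at least 1.5-fold higher in the library labelled KO-Sham than in that labelled WT-Sham, and 0 were that much lower. Over the 11478 genes with that many UMIs, 3.96% were that much higher and 3.08% that much lower. The median log2 ratio was 0.41 over the 8 members, 0.16 over 47 other chaperones and -0.09 over all genes. Scaling by TMM, a method that centres most genes on no change, raised each ratio of this pair by 0.10. Hspb1 had a log2 ratio of 0.66 (0.54 to 0.78) and Cryab 0.60 (0.52 to 0.68). Hspa8 followed with 0.45 (0.37 to 0.54), Hspd1 with 0.37 (0.24 to 0.50) and Hsp90aa1 with 0.32 (0.14 to 0.51). These 5 intervals lay above 0. With every nucleus weighted equally 0 members were past 1.5-fold, and with every nucleus thinned to 1000 UMIs 1 was. Hsph1 (0.55), Dnaja1 (0.29) and Hspb7 (0.06) were not separated, and Hspa1a and Hspa1b had 5 and 8 UMIs in WT-Sham and 10 and 4 in KO-Sham. KO-Sham shares its library with the KO-MI over KO-Sham ratios and WT-Sham with the WT-MI over WT-Sham ratios, so these values are not independent. KO-Sham nuclei were also the shallowest and the richest in mitochondrial UMIs of the 4 libraries. The part of these differences in the result was not tested.

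As a sum, the chaperones were highest in CM4, the population with 192 nuclei in WT-Sham, 192 in WT-MI, 351 in KO-Sham and 118 in KO-MI. The 10 members summed to 0.338% of the CM4 UMIs of WT-Sham, 0.508% of WT-MI (0.422% without the single nucleus), 0.251% of KO-Sham and 0.525% of KO-MI. In CM1, the largest population, they summed to 0.0988%, 0.144%, 0.157% and 0.160% in the same order. The clusters were made from all genes, chaperones included, so the comparison of populations is a description.

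Cryab was at 1047 CPM in the CM4 nuclei of WT-Sham, 1690 in WT-MI, 779 in KO-Sham and 2130 in KO-MI, and at 289, 510, 511 and 593 CPM in CM1. Its log2 ratio of CM4 over CM1 was 1.86 (1.69 to 2.02) in WT-Sham, 1.73 (1.61 to 1.85) in WT-MI, 0.61 (0.48 to 0.74) in KO-Sham and 1.84 (1.73 to 1.96) in KO-MI. CM4 was above CM1 in every library, by least in KO-Sham. Hspb1 had log2 ratios of 1.85, 1.85, 0.56 and 1.94 in the same order, Hspb7 had 1.97, 1.61, 0.61 and 1.93, and Hspa8 had 1.76, 1.33, 0.98 and 1.59. Hspd1 had 1.55, 1.12, 0.50 and 1.18. KO-Sham was thus the lowest of the 4 for each of these genes. Hsp90aa1 had 1.35 in WT-Sham, 2.22 in WT-MI (1.39 without the single nucleus), 0.08 in KO-Sham and 1.20 in KO-MI. Its interval in KO-Sham, -0.30 to 0.44, included no difference.

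Of the members with 50 or more UMIs, 7 of 7 were at least 1.5-fold higher in CM4 than in CM1 in WT-Sham, 10 of 10 in WT-MI, 4 of 8 in KO-Sham and 7 of 7 in KO-MI. In WT-MI, 7 of 8 were without the single nucleus, with a median of 1.41. Over all genes, 23.4%, 26.4%, 16.6% and 26.0% were that much higher in the same order, and of the other chaperones 25 of 41, 25 of 44, 17 of 46 and 23 of 45. The medians of the members were 1.76, 1.79, 0.59 and 1.59 on the log2 scale, beside -0.43, -0.09, -0.11 and -0.22 over all genes.

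CM4 nuclei differed from CM1 nuclei in other measures as well. Their median depth was 1715.5 to 2394 UMIs beside 2632 to 4043.5 in CM1, and their median mitochondrial share was 9.47% to 14.6% beside 5.05% to 8.78%. Ribosomal protein genes took 52845 to 78630 CPM in CM4 beside 21266 to 30904 in CM1, and Malat1, a long RNA that stays in the nucleus, 24264 to 59174 CPM beside 90874 to 123381. Endothelial markers summed to 1576 to 1707 CPM in CM4 and 462 to 834 in CM1, and fibroblast markers to 2011 to 2481 and 905 to 1048. Red blood cell markers summed to 3538 to 12805 CPM in CM4 and 1891 to 3829 in CM1. Smooth muscle and pericyte markers summed to 83.5 to 189 CPM in CM4 and 57.5 to 78.8 in CM1, and the early stress genes to 151 to 279 and 92.0 to 116. All 8 endothelial, 7 fibroblast and 5 red blood cell markers were detected in the CM4 nuclei of every library. The ranges of CM4 and CM1 did not overlap for depth, mitochondrial share, ribosomal genes, Malat1, early stress genes, or endothelial, fibroblast, or smooth muscle and pericyte markers. The part of these measures in the chaperone levels of CM4 was not tested. The other 2 populations were nearer to CM1, with member medians of 0.15 to 0.42 for CM5 over CM1 and -0.24 to 0.06 for CM2 over CM1.

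**Figure D4:**
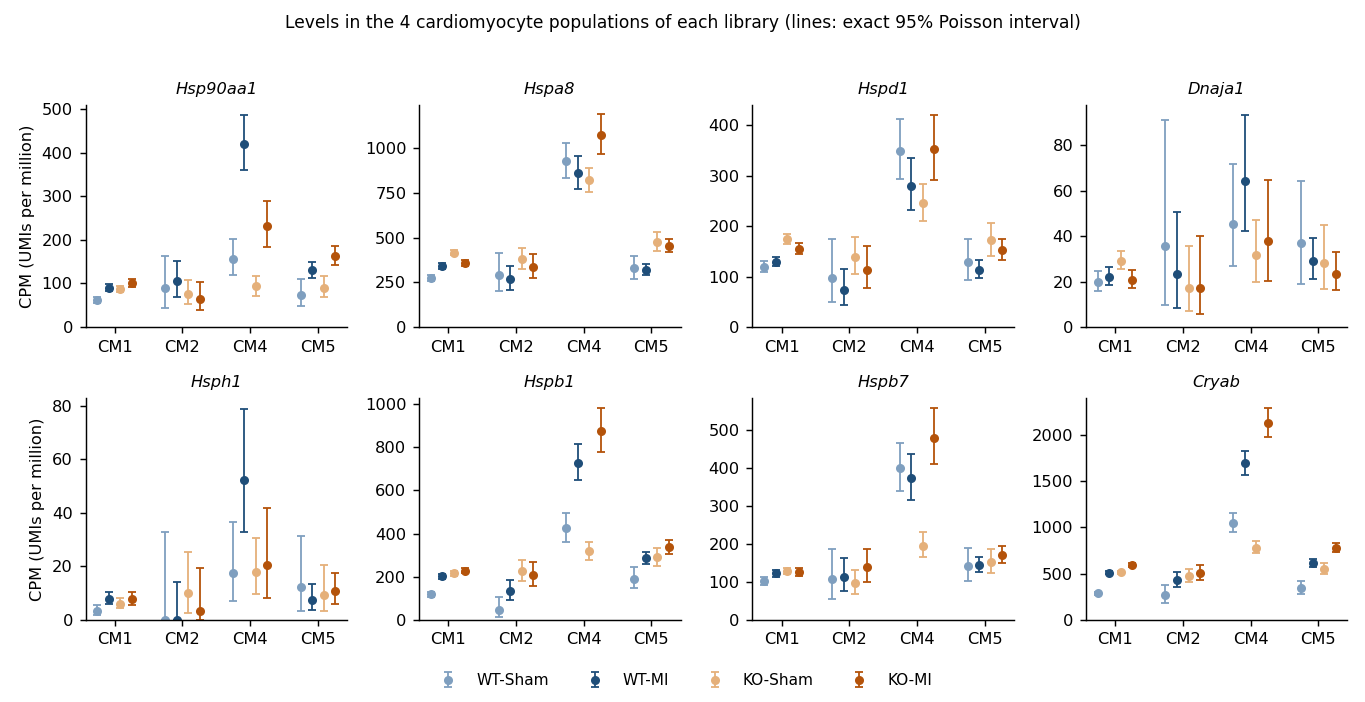
CPM of the chaperone genes other than Hspa1a and Hspa1b in CM1, CM2, CM4 and CM5 of each library, on linear axes from 0 that differ between genes, with exact 95% Poisson intervals as lines. Cryab in CM4 lies between 779 and 2130 CPM and in CM1 between 289 and 593 CPM.

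The surgery ratios differed between populations. In CM1, 3 of the 8 chaperones with 50 or more UMIs were at least 1.5-fold higher in WT-MI than in WT-Sham, beside 8.08% of genes. These 3 had log2 ratios of 1.23 (0.35 to 2.21) for Hsph1, 0.82 (0.72 to 0.92) for Cryab and 0.78 (0.63 to 0.94) for Hspb1. Hsph1, on 46 UMIs in WT-MI and 14 in WT-Sham, passed the minimum only through WT-MI. In the CM1 nuclei labelled KO, 0 of 8 were that much higher in KO-MI than in KO-Sham, beside 10.0% of genes, and the median was 0.03. Cryab had 0.22 (0.15 to 0.28) there. In CM4 the WT pair had 5 of 8 higher, beside 25.2% of genes, and 3 of 6 without the single nucleus. These 3 were Cryab, at 0.70 without it, Hspb1 at 0.72 and Hsp90aa1 at 0.60. In the CM4 pair labelled KO, 4 of 6 were higher, beside 15.1% of genes. Cryab had a log2 ratio of 1.45 (1.29 to 1.61) there, Hspb1 1.46 (1.21 to 1.71), Hsp90aa1 1.32 (0.84 to 1.81) and Hspb7 1.29 (0.96 to 1.63). Hspa8 and Hspd1 had 0.39 and 0.52 in the same pair. The small heat shock proteins of KO-MI thus stood well above those of KO-Sham in CM4 and close to them in CM1. Ribosomal protein genes were at 78630 CPM in KO-MI and 52845 in KO-Sham in CM4, and at 27537 and 30904 in CM1. Malat1 was at 38857 and 53973 CPM in CM4, and at 122074 and 90874 in CM1, in the same order. The part of these measures in the KO pair was not tested.

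In CM5, 3 of 7 were higher in the WT pair, beside 21.2% of genes, namely Cryab (0.83), Hsp90aa1 (0.82) and Hspb1 (0.59). Hsp90aa1, on 192 UMIs in WT-MI and 24 in WT-Sham, passed the minimum only through WT-MI. Its interval was 0.20 to 1.49, and that of Hspb1 also reached down to 0.20, below the 1.5-fold mark. In the KO pair 1 of 7 was higher, Hsp90aa1 with 0.86 (0.43 to 1.30), beside 24.1% of genes. With the population labels transferred from an earlier reference, Hsp90aa1 in CM5 had -0.45 in the WT pair and -0.14 in the KO pair. The names CM2 and CM5 appear exchanged between the transferred and the final labels, so these values may come from other nuclei. With the names exchanged, Hsp90aa1 in CM5 did not reverse its sign in either pair. Hspa1a and Hspa1b together had 35 UMIs in 22 CM5 nuclei of KO-MI and 0 in KO-Sham, at least 5.28-fold more when 0 is set to 3 UMIs. The WT-MI CM5 nuclei held 19 UMIs of this pair and the WT-Sham ones 0, 1.39-fold by that floor. Within CM5 the sum was thus present in both MI libraries and unseen in both Sham libraries, which held fewer CM5 nuclei. WT-Sham had 89 and KO-Sham 234, beside 339 in WT-MI and 355 in KO-MI. The interval of the 0 in WT-Sham reached 11.3 CPM and overlapped that of WT-MI, 7.74 to 20.1 CPM. In KO-Sham it reached 5.81 CPM, below the 17.4 to 34.7 CPM of KO-MI.

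Between genotypes, the Sham libraries differed in opposite directions in CM1 and CM4. In CM1, 4 of the 8 chaperones with 50 or more UMIs were at least 1.5-fold higher in the library labelled KO-Sham, beside 6.21% of genes, and all 8 log2 ratios were above 0. Hspb1 had 0.87 (0.73 to 1.02) there, Cryab 0.82 (0.73 to 0.92) and Hspa8 0.61 (0.51 to 0.71). The last of the 4, Hsph1, had 0.83 (-0.06 to 1.81), an interval that included no difference. On 44 UMIs in KO-Sham and 14 in WT-Sham, Hsph1 passed the minimum only through KO-Sham. In CM4, 2 of 6 were at least 1.5-fold lower in KO-Sham, beside 6.71% of genes, and all 6 were below 0. Hspb7 had -1.03 (-1.37 to -0.69) there, Hsp90aa1 -0.75 (-1.27 to -0.23), Cryab -0.43 (-0.61 to -0.24) and Hspb1 -0.41 (-0.71 to -0.12). The difference between the populations was not tested, and both use the same pools. Ribosomal protein genes were at 30904 CPM in KO-Sham and 21266 in WT-Sham in CM1, and at 52845 and 62927 in CM4. The median mitochondrial share was 8.78% and 6.13% in CM1, and 11.6% and 14.6% in CM4, in the same order. These measures thus changed sides between CM1 and CM4 as the chaperones did, and Malat1 went the other way, at 90874 and 98908 CPM in CM1 and 53973 and 24264 in CM4. Their part in the result was not tested. Between the MI libraries, 0 of 9 were past 1.5-fold in CM1 in either direction, beside 4.14% of genes. In CM4, 3 of 8 were that much lower in KO-MI, beside 13.9% of genes, and 0 of 6 without the single nucleus, with a median of 0.33.

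**Figure D5:**
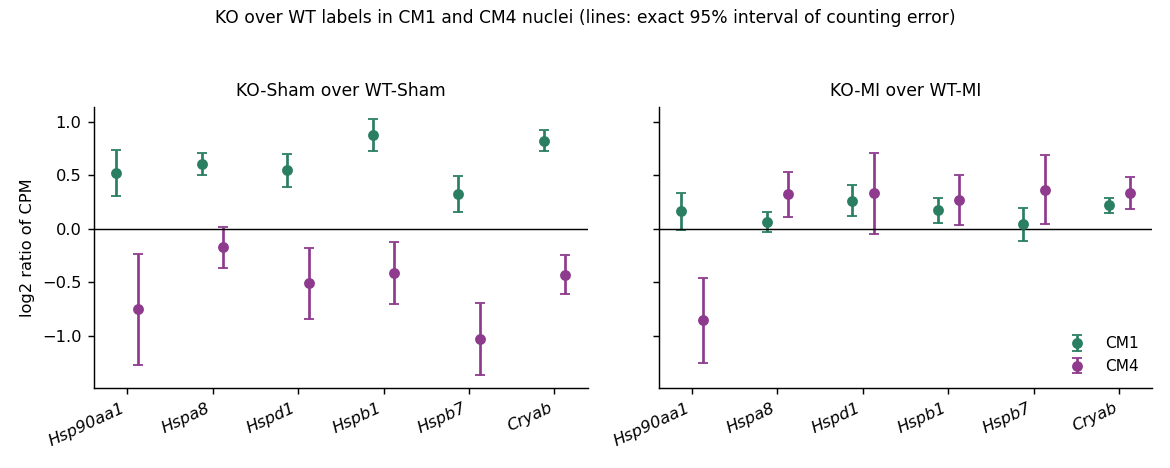
Log2 ratio of CPM of the library labelled KO over that labelled WT for 6 chaperone genes (Hsp90aa1, Hspa8, Hspd1, Hspb1, Hspb7 and Cryab) in CM1 and CM4, after Sham surgery and after MI, with exact 95% counting intervals as lines. After Sham surgery Cryab is at 0.82 in CM1 and at -0.43 in CM4.

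Likeness of pattern was taken as Pearson's r of log2(CPM + 10) over 16 sums, 4 populations in each of 4 libraries. The sums share libraries and differ in depth, so r is a description. The single nucleus held 250 of the 257 UMIs of Hspa1a and Hspa1b in 1 of the 16 sums. Among the members, Hspa1a and Hspa1b had r = 0.96, which was 0.76 without that nucleus. Hspa8 and Hspd1 had 0.96 and Cryab and Hspb1 0.94, whereas Dnaja1 and Hspb1 had the lowest with all nuclei, 0.45. Without the nucleus Dnaja1 and Hspa1a went from 0.63 to 0.31. The genes most like Cryab were Pgk1 (0.983) and Ldha (0.978), which encode enzymes of glycolysis, and Rpl38 (0.970). Those most like Hspa8 were Rpl14 (0.988), Rpl7 (0.984) and Aldoa (0.984), and those most like Hspb7 were Rps2 (0.980), Tubb4b (0.974) and Rpl13 (0.962). The genes most like Hspb1 were Cct5 (0.972) and Cct6a (0.969), subunits of the cytosolic chaperonin, and Mif (0.968). Hspd1 was most like Id3 (0.971), Aldoa (0.970) and Rpl17 (0.970). Hspa1a was most like Hsp90aa1 (0.871), Vcp (0.820) and Ebna1bp2 (0.818), values that fell to 0.788, 0.492 and 0.638 without the single nucleus, and genes like Hsp90aa1 were Eif2s2 (0.908) and Cd63 (0.890). Hsph1 was most like Tbrg1 (0.947), Set (0.936) and Clptm1l (0.915), with 0.709, 0.798 and 0.777 without that nucleus, and Dnaja1 most like Psmd12 (0.893), Itm2c (0.868) and Laptm4a (0.850). Hspa1b had too few UMIs for this comparison.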

How the data were processed

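Single-nucleus RNA sequencing was analysed in 4 libraries of heart nuclei. The authors deposited UMI counts per gene and nucleus with no normalization, which per the study's methods came from Cell Ranger (version not given in the sources used here) on an mm10/GRCm38 pre-mRNA reference, so that intronic reads were counted. A second deposited table gives each nucleus its library, its population and the percent of its UMIs from the mitochondrial genome. Population labels had been made with Seurat 3, CM1 and CM3 had been merged into CM1, doublets called by Scrublet had been removed and nuclei of 200 to 2500 detected genes kept. Doublets were not called anew. The labels name kit version v2 and the methods v3. That table holds 11 further columns, which were not used here. Deposited labels were used as they stand.

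UMIs were summed per library and population and scaled to CPM with exact Poisson 95% intervals. Log2 ratios of CPM have exact conditional binomial intervals. Intervals and floors cover counting error only, and nuclei of 1 pool are not replicates. A sum of 0 UMIs counted as 3 UMIs, the floor, which makes its fold a bound, and no ratio is given where both sums were at or under 3. Medians over a list take genes whose sums together held 50 or more UMIs. Depth was 4984625 to 9106522 UMIs per library. Library scaling alternatives used TMM (edgeR 4.0.16 in R 4.3.3), and the other steps python 3.11.15, numpy 2.4.6, scipy 1.17.1 and pandas 2.3.3. The steps were tested on simulated data. Further alternatives changed the scaling, the depth, the weight of single nuclei, the nuclei high in RNA of other cell types, the population label and the minimum of UMIs.

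The members, the lists and the comparisons were chosen with earlier results of these data known. Genes named beside the members were the 3 highest and the 3 lowest of 48 other chaperone genes in each comparison, the 3 genes with the highest correlation to each member with 200 or more UMIs in all, among genes with 500 or more, and Nfe2l1. For Hsp90aa1, 1 of these 3 is not reported here. The genes of the single high nucleus were named after their values had been seen. Gene positions are from GENCODE M21 (GRCm38) and promoters from RefSeq (GRCm38.p6).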

Additional observations from a re-analysis of the deposited data

Results flagged for a closer look

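The members below had ratios of opposite sign in a pair of settings that share the same contrast. Each has 1 library per side, and no difference between the settings was tested. For MI over Sham, Hspa8 had a log2 ratio of 0.14 in the WT pair and -0.14 in the KO pair, and Dnaja1 had 0.13 and -0.39. For KO over WT as labelled, Hspa1a had -1.91 after MI and 0.13 after Sham surgery, and the first value was 0.14 without the single WT-MI nucleus. Hsph1 had -0.19 and 0.55 for KO over WT, and Dnaja1 had -0.23 and 0.29, with intervals that included no difference in each case.

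Between populations, KO-MI over KO-Sham gave Hspa8 a log2 ratio of -0.22 in CM1 and 0.39 in CM4, and Hspd1 -0.16 and 0.52. For KO-Sham over WT-Sham, as labelled, 5 chaperones were above 0 in CM1 and below 0 in CM4. Hspb1 had 0.87 and -0.41 in CM1 and CM4, Cryab 0.82 and -0.43, Hspd1 0.55 and -0.51, Hsp90aa1 0.52 and -0.75, and Hspb7 0.32 and -1.03. CM1 and CM4 come from the same pools, and these differences between populations were not tested. Between KO-Sham and WT-Sham, ribosomal protein genes (30904 beside 21266 CPM in CM1, 52845 beside 62927 in CM4) and the median mitochondrial share (8.78% beside 6.13%, and 11.6% beside 14.6%) also changed sides, and Malat1 went the other way (53973 beside 24264 CPM in CM4). Their part in the result was not tested.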

How the results depend on the processing

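No paired analysis was possible because there was 1 library per group and the labels give no replicate numbers. Of the medians and counts over the members under every alternative, 53 kept their direction and size, 5 moved and 2 reversed, and of the values of single members 951 kept, 123 moved and 27 reversed. The member median ran from 0.60 to 0.80 for WT-MI over WT-Sham, 0.19 to 0.35 for KO-MI over KO-Sham, -0.036 to 0.18 for KO-MI over WT-MI and 0.29 to 0.51 for KO-Sham over WT-Sham. Counted over the members that passed the minimum with all nuclei, the number past 1.5-fold in WT-MI over WT-Sham was 6 under all 8 alternatives. With the minimum of UMIs applied anew without the nucleus with the most Hspa1a it was 5, and with 50 or more UMIs in each sum, a rule chosen after seeing the data, it was 3 of 7 with a median of 0.14. The minimum of 20 UMIs gave 2 in place of 1 for KO-MI over KO-Sham, since Hspa1b was then included. For KO-MI over WT-MI, 0 were past the fold in place of 2 without the 5 highest nuclei per gene and without the nucleus with the most Hspa1a, and the median was -0.036 with nuclei thinned to 1000 UMIs and -0.0099 with every nucleus weighted equally. For KO-Sham over WT-Sham, thinning gave 1 and equal weights 0 in place of 2, and TMM gave 3. TMM raised each ratio of this pair by 0.10, which took Hsph1, at 0.55 without it, past the fold.

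The alternatives without the single nucleus (correlations included), with exchanged label names, and those for CM4 over CM1 other than adding up Hspa1a and Hspa1b, were chosen after seeing the data. Without that nucleus the sign reversed for KO-MI over WT-MI over all nuclei in Hspa1a (0.14) and Hspa1b (0.45, and 0.31 without the 5 highest nuclei), in CM4 in Hspa1a (1.13), Hspa1b (2.09) and Hsph1 (1.09), and for WT-MI over WT-Sham in CM4 in Hsph1 (-0.89). The transferred label puts that nucleus in CM1. With it, with names exchanged or not, these CM4 values were 0.85, 3.08, 1.08 and -1.37. CM4 over CM1 in WT-MI then gave -1.43 for Hspa1a, -3.30 for Hspa1b and -0.44 for Hsph1, and Hspa1a gave -1.08 without the 5 highest nuclei. Hsph1 in KO-MI gave -0.077 for CM4 over CM1 without the 5 highest nuclei. The transferred names CM2 and CM5 appear exchanged against the final ones. As transferred, Hsp90aa1 in CM5 gave -0.45 (WT-MI over WT-Sham) and -0.14 (KO-MI over KO-Sham), Hsp90aa1 in CM2 gave 0.28 (KO-MI over WT-MI) and Hsph1 in CM2 gave 0.66 (KO-Sham over WT-Sham). With names exchanged, CM2 gave 0.18 for Hsp90aa1 (KO-MI over WT-MI) and 0.40 and 0.10 for Dnaja1 (WT-MI over WT-Sham and KO-Sham over WT-Sham). Hsp90aa1 in CM5 then kept its sign for MI over Sham in both pairs. The cause was not tested for these labels. Thinning left out 6 nuclei of WT-Sham and 1 of WT-MI. The spread between hearts is unknown, and Hspa1a and Hspa1b each had only 4 to 10 UMIs in a Sham library, which limits every ratio against those libraries.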

Other observations

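Other chaperone genes also differed with surgery. Hspb8, a small heat shock protein that works with the co-chaperone Bag3, was at 19.9 CPM in WT-MI and 7.82 in WT-Sham, a log2 ratio of 1.34 (0.83 to 1.89). In the KO pair it was at 16.2 and 6.48 CPM, a log2 ratio of 1.32 (0.86 to 1.80). Its ratio was above the 1.5-fold mark in both genotypes, which share no library. In WT-Sham it had under 50 UMIs, so it passed the minimum of the WT pair only through WT-MI. With 50 or more UMIs in each library, 1 of 41 other chaperones was higher in the WT pair and 0 were lower. In the KO pair 6 of 45 were then higher and 1 was lower. Fkbp5, a co-chaperone of HSP90 that glucocorticoids induce, had 1.02 (0.55 to 1.52) in the WT pair and 0.84 (0.49 to 1.19) in the KO pair. Dnajb5, an HSP40 protein, had 0.67 (0.04 to 1.33) and 1.19 (0.67 to 1.71). Fkbp4, a further HSP90 co-chaperone, was lower after MI, with -0.47 (-0.69 to -0.25) in the WT pair and -0.50 (-0.68 to -0.33) in the KO pair. The lowest others were Hspa12b (-0.76) and Bag1 (-0.35) in the WT pair, and the muscle small heat shock proteins Hspb3 (-0.79) and Hspb2 (-0.53) in the KO pair. Fkbp5 and Fkbp4 lay on opposite sides of 0 in both pairs. All genes of this paragraph but Bag3 were named for being among the highest or the lowest of the list.

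Between the libraries labelled KO-Sham and WT-Sham, the highest log2 ratios were those of Cct8 (0.67, 0.45 to 0.90) and Cct7 (0.53, 0.30 to 0.76), subunits of the cytosolic chaperonin, and of Hspe1 (0.57, 0.44 to 0.70), the mitochondrial partner of HSP60. The lowest were Hsf2 (-0.45, -0.74 to -0.16), a heat shock transcription factor, Chordc1 (-0.30) and Hspb8 (-0.27). Between KO-MI and WT-MI as labelled, the highest were Hspa12b (0.62, -0.08 to 1.33), Hspb6 (0.43, 0.24 to 0.62) and Hspa13 (0.40), and the lowest Hspa4l (-0.31), Hspb8 (-0.30) and Ahsa1 (-0.23). Both genotype comparisons share their libraries with the surgery comparisons.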
